A study of Mus musculus with 28 samples.

Results

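The MHC class II presentation genes followed here were H2-Aa, H2-Ab1, H2-Eb1, Cd74, H2-DMa, H2-DMb1, H2-DMb2, H2-Oa, H2-Ob and Ciita. They were chosen by name, with earlier results of these data known, and all 10 were found among the 55341 genes of both count matrices. RNA came from 28 whole AB1-HA tumors, AB1-HA being a mouse mesothelioma cell line, grown under the skin of female BALB/c mice of 8 to 10 weeks. The 6 groups were PBS (4 tumors), immune checkpoint blockade (ICB, 5 tumors), 5-FU (5 tumors), 5-FU+ICB (5 tumors), cisplatin (4 tumors) and cisplatin+ICB (5 tumors). Mice of the 5-FU groups received 75 mg/kg into a vein, and those of the cisplatin groups 6 mg/kg into the peritoneum. ICB was 100 µg of anti-CTLA-4 once, with anti-PD-L1 at 100 µg on 3 occasions 2 days apart. Tumors were taken on day 7 of treatment. The tumors were not separated into cell types, so fewer cells of a type and less RNA per cell cannot be told apart in any value.

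MHC class II molecules are pairs of an α and a β chain that show peptides from the endosome to CD4+ T cells. The invariant chain Cd74 fills their groove on the way to the endosome, H2-DM then swaps its remnant for a peptide, and H2-O restrains H2-DM, mainly in B cells. Ciita is the co-activator that assembles on the promoters of these genes, and interferon gamma induces it. Dendritic cells, B cells and macrophages are the usual class II positive cells, and many tumor lines carry little of it.

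All of these genes but Cd74 and Ciita lie together on mouse chromosome 17. In GENCODE M21 (GRCm38) H2-Oa lies at chr17:34092340-34095234, H2-DMa at chr17:34119541-34139101, H2-DMb2 at chr17:34143307-34151555, H2-DMb1 at chr17:34153072-34160230 and H2-Ob at chr17:34238903-34254414. H2-Ab1 follows at chr17:34257689-34269419, H2-Aa at chr17:34282744-34287823 on the minus strand and H2-Eb1 at chr17:34305867-34316674. Ciita lies at chr16:10480059-10528418. The promoters of this cluster share an arrangement known as the X-Y module, to which the RFX and NF-Y factors that recruit Ciita bind. RefSeq promoters (GRCm38.p6) were matched for 7 of the 10 genes, and 4 are shown because they carry that module in front of a classical α chain, a classical β chain, an H2-DM chain and an H2-O chain. Each is 100 bases, from 120 to 21 bases before the RefSeq start, and overlaps no annotated exon of its gene. H2-DMb2 has a longer transcript whose start lies further upstream, so its stretch is inside an intron of that transcript. The capitals mark TGATTGG, the core of the Y box, and, before it, ATGATGC or TGACGTCA, letters of the X2 box.
H2-Aa: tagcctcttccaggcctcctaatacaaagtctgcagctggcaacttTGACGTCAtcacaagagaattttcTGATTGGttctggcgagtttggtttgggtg
H2-Eb1: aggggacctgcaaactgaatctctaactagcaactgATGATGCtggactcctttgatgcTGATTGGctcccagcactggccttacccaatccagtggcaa
H2-DMb2: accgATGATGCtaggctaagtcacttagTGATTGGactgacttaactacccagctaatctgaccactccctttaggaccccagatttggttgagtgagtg
H2-Ob: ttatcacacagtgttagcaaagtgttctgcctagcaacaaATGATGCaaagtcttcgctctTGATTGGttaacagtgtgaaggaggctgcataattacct

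The stretches of H2-Aa (chr17:34287844-34287943, minus strand), H2-Eb1 (chr17:34305747-34305846), H2-DMb2 (chr17:34145129-34145228) and H2-Ob (chr17:34238785-34238884) hold the 2 boxes in the same order. The letters were chosen after the promoters were read and searched on both strands, and a match describes the sequence only. TGATTGG stood in the 300-base promoters of 6 of the 7 genes, all but H2-DMa, against 7.82% of all 32851 promoters. ATGATGC stood in 4 of the 7, against 2.46% of all, and TGACGTCA in H2-Aa alone, against 1.79%.

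Each tumor had between 23541733 and 33950805 counts, and levels are given in CPM, counts relative to the library size after TMM scaling. At this depth 3 counts were worth 0.0822 to 0.159 CPM, which covers counting error only, and the lowest count of any of the 10 genes in any tumor was 13. All 10 passed the filter on low counts, which left 17916 genes for the tests with 5-FU and 17819 for those with cisplatin. A gene was called where edgeR's quasi-likelihood test gave a Benjamini-Hochberg adjusted p under 0.05 over all genes tested and the log2 fold change was over 0.5 in size. The SE given with a log2 fold change was derived as its size over the square root of edgeR's F statistic. Such an SE is unreliable for very small changes. The labels do not say whether the tumors of a group were treated together, so p-values measure the spread between these tumors. A few tumors stood apart from their groups in these genes or in cell markers, as seen from their values, and are named where they matter: ICB tumor 4, 5-FU tumor 3, 5-FU+ICB tumors 2 and 5, and cisplatin+ICB tumor 1.

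H2-Aa, H2-Ab1 and H2-Eb1, the chains of the classical I-A and I-E molecules, had their highest median in the ICB group. H2-Aa, the I-A α chain, had 196, 526, 287 and 198 CPM in PBS tumors 1 to 4 and 3284, 4596, 5570.5, 1547 and 5371 CPM in ICB tumors 1 to 5. In 5-FU tumors 1 to 5 it had 614, 638, 4400.4, 371 and 1470.2 CPM, and in 5-FU+ICB tumors 3749, 195, 4547, 2007 and 5623 CPM. In cisplatin tumors it had 749, 199, 239 and 599 CPM, and in cisplatin+ICB tumors 626, 2029.6, 632, 2369 and 1924 CPM. The ICB and cisplatin+ICB tumors all lay above the PBS tumors, which held for 15.8% and 3.43% of all genes in these comparisons. 5-FU tumor 3 reached the ICB range on its own, while 5-FU+ICB tumor 2 was at the PBS level and the other 4 tumors of its group were at the ICB level.

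H2-Ab1, the I-A β chain, ran from 127 to 414 CPM in PBS, 1174 to 3609 in ICB, 295 to 3639 in 5-FU and 164 to 3474 in 5-FU+ICB. It ran from 136 to 562 CPM in cisplatin and from 468 to 1812 in cisplatin+ICB. H2-Eb1, the I-E β chain, ran from 136 to 503 CPM in PBS and from 1236 to 4391 CPM in ICB, with the same tumors high and low as for H2-Ab1 in the 5-FU groups. The chains kept close proportions: the ratio of H2-Eb1 to H2-Ab1 was between 0.953 and 1.25 in all 28 tumors, and that of H2-Aa to H2-Ab1 between 1.19 and 1.62. The α chain of I-E is counted under the name H2-Ea-ps, because the gene is a pseudogene in the C57BL/6 reference and intact in BALB/c. It ran from 103 to 342 CPM in PBS and from 762 to 2398 CPM in ICB. BALB/c also carries other class II alleles than the reference, and what this does to the level of each chain was not tested.

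**Figure D1:**
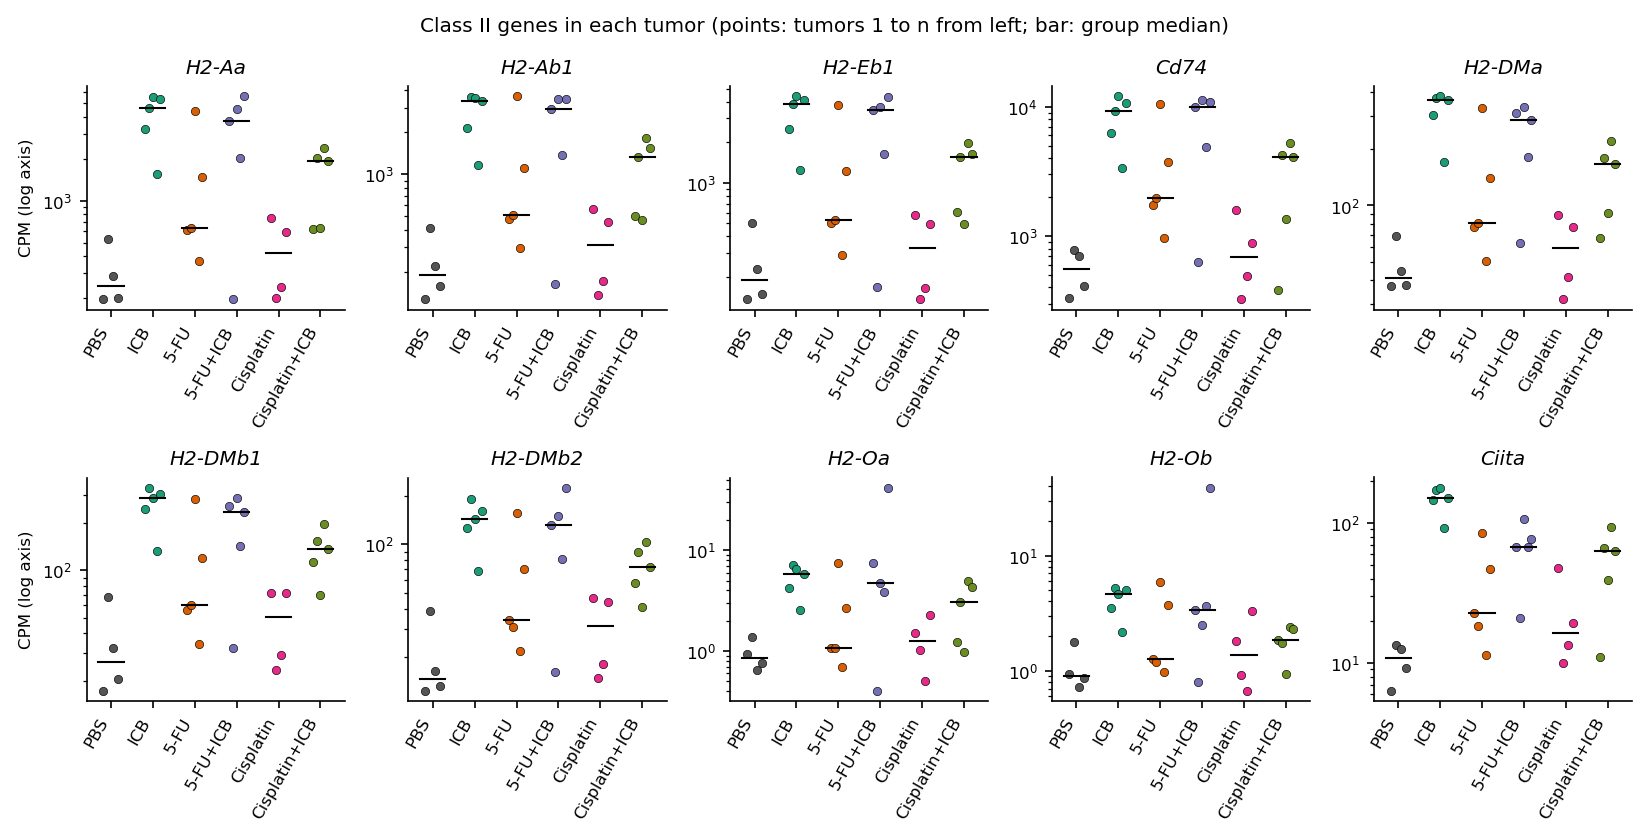
CPM (log axis) of the 10 class II genes, one panel a gene, one point a tumor and one column a treatment group, with a bar at the group median. The ICB tumors lie above the PBS tumors in every panel, for example 1547 to 5570.5 against 196 to 526 CPM for H2-Aa. For H2-Aa the 5-FU tumors lie at 371 to 4400.4 and the 5-FU+ICB tumors at 195 to 5623 CPM.

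Cd74 (chr18:60803848-60812652), the invariant chain, was the most abundant of these genes per kb of its longest coding transcript in every group (median 395 CPM per kb in PBS, 6605 in ICB and 6986 in 5-FU+ICB). It had 332, 774, 701 and 413 CPM in PBS tumors 1 to 4, 6270.2, 9313, 12051, 3346 and 10576 CPM in ICB tumors, and 1722, 1965, 10541, 957 and 3734 CPM in 5-FU tumors. It had 9850.4, 633, 11213, 4847 and 10927 CPM in 5-FU+ICB tumors, 1586, 324, 493 and 881 CPM in cisplatin tumors and 384, 4248, 1347, 5271 and 4088 CPM in cisplatin+ICB tumors. Every 5-FU tumor lay above every PBS tumor, which held for 1 gene of the 10 and for 9.27% of all genes in that comparison.

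The H2-DM chains, which load peptide onto class II molecules, had medians of 9.98 to 20.6 CPM per kb in PBS, where the classical chains had 114 to 215 CPM per kb. H2-DMa ran from 37.5 to 68.8 CPM in PBS, 169 to 381 in ICB, 50.6 to 328 in 5-FU, 62.9 to 334 in 5-FU+ICB, 31.7 to 89.1 in cisplatin and 67.2 to 221 in cisplatin+ICB. H2-DMb1 ran from 17.2 to 67.5 CPM in PBS and from 133 to 334 CPM in ICB, and H2-DMb2 from 12.4 to 38.9 and from 68.7 to 189.7 CPM. PBS and ICB tumors did not overlap for any H2-DM chain. Of the 31-base words of the H2-DMb1 transcripts 31.4% also occur in H2-DMb2, so counts could be shared between these 2 genes and their single levels are uncertain.

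The H2-O chains, which hold H2-DM in check, had the lowest medians per kb of the 10 genes in every group, at 0.780 CPM per kb for H2-Oa and 0.336 for H2-Ob in PBS, with Ciita next at 1.81. H2-Oa had 0.933, 1.39, 0.651 and 0.764 CPM in PBS tumors, 4.26, 7.05, 6.55, 2.53 and 5.78 CPM in ICB tumors and 7.48, 0.403, 4.78, 3.87 and 41.7 CPM in 5-FU+ICB tumors. H2-Ob had 0.933, 1.76, 0.723 and 0.864 CPM in PBS tumors, 3.54, 5.23, 4.66, 2.19 and 5.03 CPM in ICB tumors and 3.39, 0.806, 2.51, 3.65 and 38.8 CPM in 5-FU+ICB tumors. Both chains were far higher in 5-FU+ICB tumor 5 than in any other tumor, where the highest values were 7.48 and 5.92 CPM. Of the 31-base words of H2-Oa 18.3% also occur in BC051537, which makes its level uncertain too.

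Ciita had 6.33, 13.5, 12.6 and 9.17 CPM in PBS tumors 1 to 4, 145, 171, 179, 92.8 and 150.4 CPM in ICB tumors and 22.6, 18.3, 84.3, 11.4 and 47.1 CPM in 5-FU tumors. It had 67.3, 20.9, 106, 67.9 and 77.0 CPM in 5-FU+ICB tumors, 47.8, 9.98, 13.4 and 19.4 CPM in cisplatin tumors and 11.0, 66.0, 38.9, 93.5 and 62.5 CPM in cisplatin+ICB tumors. Every 5-FU+ICB tumor lay above every PBS tumor, which held for 1 gene of the 10 and for 10.9% of all genes. ICB tumor 4 was the lowest of its group for all 10 genes.

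Ordered by median, PBS was the lowest group for all 10 genes and ICB the highest for 9, with 5-FU+ICB the highest for Cd74. For 8 genes the order was PBS, cisplatin, 5-FU, cisplatin+ICB, then 5-FU+ICB and ICB, and for H2-Oa and H2-Ob cisplatin stood above 5-FU. Neighbouring groups overlapped at each of the 5 steps for every gene, so the order of neighbours does not exceed their spread.

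In tumors treated with ICB alone, all 10 genes stood above every PBS tumor and 9 of the 10 were called higher. Cd74 rose by a log2 fold change of 3.93 ± 0.80 (SE, edgeR adjusted p = 0.00154), Ciita by 3.85 ± 0.57 (adjusted p = 0.000258) and H2-Aa by 3.76 ± 0.86 (adjusted p = 0.00293). Among the H2-DM genes H2-DMa rose by 2.76 ± 0.55 (adjusted p = 0.00127). H2-Oa was called at 2.49 ± 0.95 (adjusted p = 0.0439), and H2-Ob, at 1.95 ± 0.89, was not (adjusted p = 0.0876). DESeq2 called H2-Ob too (2.00, adjusted p = 0.0359), with 18.6% of all genes called higher, and edgeR on the cisplatin matrix, which holds the same PBS and ICB tumors, called all 10, against 15.5% of all genes. Among all genes tested 19% were called higher, and 15.8% had every ICB tumor above every PBS tumor. The median log2 fold change was 3.26 over the 10 genes and -0.0343 over all genes. The call of H2-Oa was kept in 1 of the 9 fits that left out a tumor.

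Leukocyte markers were higher in the same tumors. Ptprc (CD45), present on all leukocytes, ran from 75.0 to 105 CPM in PBS and from 245 to 443 CPM in ICB. The summed CPM of 7 macrophage markers was 1363 to 2067 in PBS and 2831 to 7785 in ICB, with 7 of 7 called higher. The sum of 7 dendritic cell markers was 31.7 to 43.8 and 126 to 504 CPM, with 3 of 7 called, and that of 5 T cell markers 21.4 to 26.7 and 129 to 468 CPM, with 5 of 5 called. The sum of 4 B cell markers was 15.3 to 19.5 CPM in PBS and 7.94 to 24.7 CPM in ICB, with 0 of 4 called by edgeR. Of the 4 neutrophil markers tested 2 were called, as were 2 of 4 monocyte and 2 of 4 endothelial markers. The sum of all 5 neutrophil markers was 59.2 to 164 CPM against 9.11 to 17.9 CPM in PBS. The sum of 5 skeletal muscle markers was 101 to 167 CPM in PBS, 1.61 to 3157 in ICB, 7.91 to 1307 in 5-FU and 2.36 to 4357 in 5-FU+ICB, so that tumors held very different amounts of muscle RNA, whose part was not tested. None of these markers was at 0 in all 28 tumors, and 1 neutrophil marker was at 0 in every PBS tumor. Taken relative to Ptprc with limma, 8 of the 10 genes were still called higher in ICB tumors, against 1.38% of all genes. Ciita kept 1.88 (adjusted p = 0.000356), Cd74 1.90 (adjusted p = 0.00105) and H2-DMa 0.77 (adjusted p = 0.0405) on the log2 scale. H2-Oa (0.40, adjusted p = 0.473) and H2-Ob (-0.07, adjusted p = 0.893) were not called on that scale.

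In 5-FU tumors, 6 of the 10 genes were called higher than in PBS, namely H2-Aa, H2-Ab1, H2-Eb1, H2-DMa, Cd74 and Ciita, against 9.98% of all genes. Cd74 rose by 2.79 ± 0.76 (SE, edgeR adjusted p = 0.0155), H2-Ab1 by 2.40 ± 0.80 (adjusted p = 0.0362) and Ciita by 1.84 ± 0.52 (adjusted p = 0.0180). One gene of the 10, Cd74, had groups that did not overlap, against 9.27% of all genes. The high values came from tumor 3 above all and then tumor 5: without tumor 3 the log2 fold change of H2-Aa was 1.35 in place of 2.31, and 1 of the 10 genes was called, against 5.94% of all genes called higher. The count of calls was 0 without PBS tumor 1, against 3.43% of all genes, and 3 without PBS tumor 2, against 3.73%. It was 2 without PBS tumor 3, PBS tumor 4 or 5-FU tumor 5, against 10.5%, 8.66% and 5.35%, and 7 without 5-FU tumor 4, against 9.26%. With all 6 groups in one model it was 1, against 2.84%. Tumors 3 and 5 were also the highest of their group in Ptprc (331 and 268 CPM, against 97.7 to 143 in the other 3) and in summed macrophage markers (6246 and 3185 against 1822 to 2134 CPM). Of the markers, 3 of 7 for macrophages, 1 of 7 for dendritic cells and 4 of 5 for T cells were called higher in 5-FU tumors, as were 1 of 4 for endothelial cells and 1 of the 4 tested for neutrophils. The sum of 5 fibroblast markers was 3891 to 9172 CPM in PBS and 10392 to 16060 CPM in 5-FU, with 3 of 5 called higher, and 3697 to 7408 CPM in ICB with 0 called by edgeR. The sum of 5 mesothelial markers was 272 to 359 CPM in PBS, 46.9 to 178 in 5-FU and 54.6 to 218 in ICB, although 1 marker was called higher and 0 lower in each. The part of these cells in the class II values was not tested. DESeq2 called H2-DMb1 (1.75, adjusted p = 0.0191) and H2-DMb2 (1.68, adjusted p = 0.0269) besides the 6 genes, with 13.6% of all genes called higher. Relative to Ptprc, Cd74 alone was called (1.39, limma adjusted p = 0.0414), against 0.988% of all genes.

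In 5-FU+ICB tumors, all 10 genes were called higher than in PBS, against 21.9% of all genes, with a median log2 fold change of 3.27. Cd74 rose by 3.78 ± 0.80 (SE, edgeR adjusted p = 0.00196), H2-Aa by 3.43 ± 0.85 (adjusted p = 0.00453) and Ciita by 2.74 ± 0.54 (adjusted p = 0.00139). H2-Oa rose by 3.65 ± 1.00 (adjusted p = 0.00800) and H2-Ob by 3.21 ± 0.94 (adjusted p = 0.0114). Without tumor 5 these values were 2.15 (adjusted p = 0.0335) and 1.28 (adjusted p = 0.0888). Groups that did not overlap were found for Ciita alone, against 10.9% of all genes, since tumor 2 lay inside the PBS range for the other 9 or below it. Ptprc ran from 105 to 723 CPM in this group, and 5 of 7 macrophage, 5 of 7 dendritic cell, 5 of 5 T cell and 3 of 4 B cell markers were called higher. So were 4 of 4 endothelial, 2 of 5 fibroblast, 2 of 4 monocyte and 1 of the 4 tested neutrophil markers. Of the 4 mesothelial markers tested, 2 were called higher and 1 lower, and the sum of all 5 was 37.5 to 169 CPM. Relative to Ptprc, Cd74 alone was called (1.42, limma adjusted p = 0.00757), against 1.87% of all genes.

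5-FU+ICB tumor 2 had class II chains at the PBS level and Ifng above it, a pattern chosen after its values were seen. Its H2-Aa was 195 CPM and its Cd74 633 CPM, both within the PBS range of 196 to 526 and 332 to 774 CPM or just under it. Ifng, the gene of interferon gamma, was at 4.34 CPM there and at 0.203 to 0.407 CPM in PBS. It was the lowest of the 5-FU+ICB group, where the other 4 tumors had 7.86 to 12.4 CPM of Ifng. Its Ciita was 20.9 CPM. Its Ptprc was 105 CPM, its summed macrophage markers 1476 CPM and its summed dendritic cell markers 47.8 CPM, each the lowest of its group and within the PBS range or just above it. The part of these cells in the low class II values was not tested.

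5-FU+ICB tumor 5 held the highest B cell markers of the series. Their summed level was 756 CPM there and at most 101 CPM in the other 27 tumors. All 4 markers were at their highest in this tumor, Cd79a at 287 and Ms4a1 at 218 CPM. H2-Oa and H2-Ob were also at their highest in it, at 41.7 and 38.8 CPM. The ratio of H2-DMb2 to H2-DMb1 was 0.957, against 0.495 to 0.720 elsewhere, with H2-DMb2 at 224 CPM, the highest of the series, while H2-DMa and H2-DMb1, at 285 and 234 CPM, were within the range of their group. H2-Eb2, a further class II β gene that was named after its values were seen, was at 7.45 CPM there and at 0.416 CPM or less in the other tumors. Summed T cell markers (977 CPM) and dendritic cell markers (934 CPM) were the highest of the series in the same tumor.

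**Figure D2:**
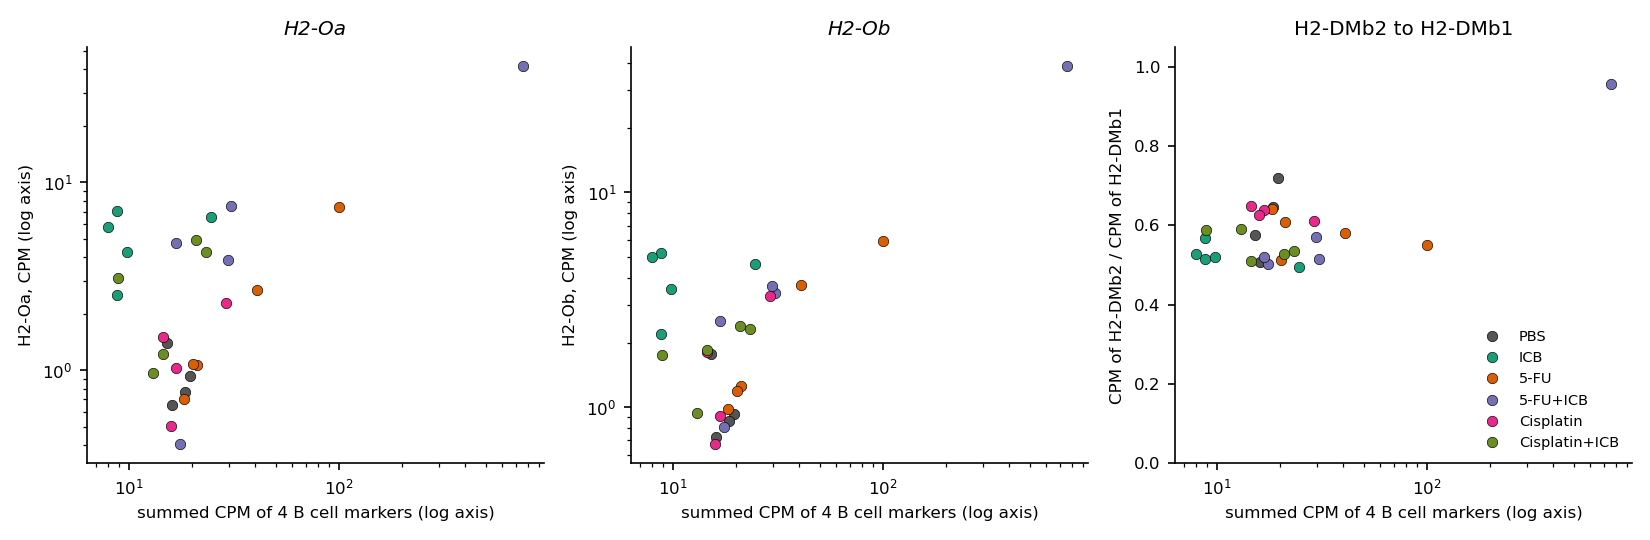
H2-Oa and H2-Ob in CPM (log axes) and the ratio of H2-DMb2 to H2-DMb1, each against the summed CPM of the B cell markers Ms4a1, Cd79a, Cd79b and Pax5 (log axis), one point a tumor. 5-FU+ICB tumor 5 stands alone at 756 CPM of B cell markers with 41.7 CPM of H2-Oa, 38.8 CPM of H2-Ob and a ratio of 0.957.

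In cisplatin tumors, 0 of the 10 genes were called against PBS by edgeR and 0 by DESeq2, and 0% of all genes were called higher by edgeR. All 10 log2 fold changes were above 0, from 0.35 to 1.13, as were those of 48.1% of all genes. Of the 10, 1, that of Ciita (1.13 ± 0.53), had an unadjusted p under 0.05, against 1.3% of all genes higher at that p. The value of Ciita was 0.45 without cisplatin tumor 1. Ciita was at 47.8 CPM in cisplatin tumor 1 and at 9.98 to 19.4 CPM in the other 3, 2 of which were inside the PBS range. Ptprc was at 77.3 to 155 CPM in these tumors, and 0 of the macrophage, dendritic, T and B cell markers were called by edgeR.

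In cisplatin+ICB tumors, 8 of the 10 genes were called higher than in PBS, against 4.7% of all genes. H2-Aa rose by 2.34 ± 0.55 (SE, edgeR adjusted p = 0.0238), Ciita by 2.40 ± 0.53 (adjusted p = 0.0193) and Cd74 by 2.48 ± 0.66 (adjusted p = 0.0353). H2-Oa (1.65 ± 0.52, adjusted p = 0.0647) and H2-Ob (0.80 ± 0.44, adjusted p = 0.296) were not called. DESeq2 called H2-Oa (1.73, adjusted p = 0.0136), with 8.7% of all genes called higher. H2-Aa, H2-Ab1, H2-DMb1 and H2-DMb2 had groups that did not overlap, against 3.43% of all genes. The count of calls fell to 0 without PBS tumor 1, 3 or 4, where 0% of all genes were called higher, and without cisplatin+ICB tumor 2 or 4, where 1.25% and 1.33% were. It fell to 2 without cisplatin+ICB tumor 5, against 1.78% of all genes, and rose to 9 without cisplatin+ICB tumor 1 or 3, against 18.2% and 6.48%. With all 6 groups in one model 1 of the 10 was called, against 3.42% of all genes, and with these 2 groups alone 0, as were 0% of all genes. The log2 fold change of H2-Aa stayed between 2.13 and 2.74 over the 9 fits that left out a tumor. Ptprc ran from 118 to 361 CPM in this group, and 2 of 7 macrophage, 2 of 7 dendritic cell, 4 of 5 T cell and 0 of 4 B cell markers were called higher. Neutrophil markers were called for 4 of the 4 tested, and monocyte markers for 2 of 4. The sum of all 5 neutrophil markers was 33.9 to 105 CPM against 9.11 to 17.9 CPM in PBS. Relative to Ptprc, the 3 classical chains were called, H2-Aa at 0.96 (limma adjusted p = 0.0287), against 0.735% of all genes, and Ciita had 0.87 (adjusted p = 0.0533).

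Cisplatin+ICB tumor 1 had classical chains without Cd74 and Ciita in step. Its Cd74 was 0.613 times its H2-Aa, against 1.47 to 3.24 in the other 27 tumors, and its H2-DMb1 was 1.68 times its H2-DMa, against at most 0.981. Ciita was 11.0 CPM and Rfx5, a subunit of the RFX factor that binds the X box, 4.82 CPM, the lowest value of the 28 tumors, the next being 11.8 CPM. Ifng was 0.848 CPM, the lowest of its group but close to the 0.913 CPM of cisplatin+ICB tumor 3, with 8.52 to 12.4 CPM in the others. The summed mesothelial markers (656 CPM) and monocyte markers (892 CPM) of cisplatin+ICB tumor 1 were the highest of the series, and its T cell markers summed to 18.7 CPM. TMM scaling raised the CPM of this tumor: 11801 counts of H2-Aa in a total of 27570127 came to 626 CPM. Its levels, though not its ratios, rest on that scaling. It had counts in 23605 genes, the fewest of the 28 tumors. These values were singled out after they were seen, and what sets this tumor apart was not tested.

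**Figure D3:**
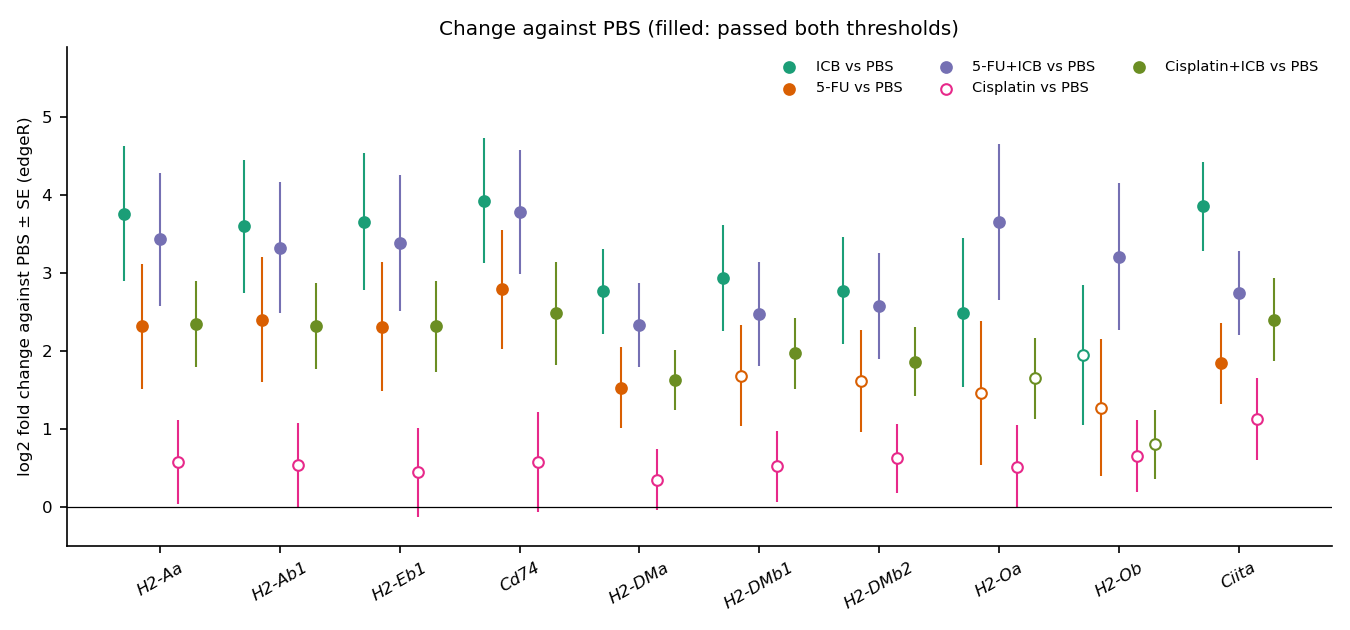
log2 fold change against PBS ± SE, derived from edgeR's F statistic, for the 10 class II genes in 5 comparisons, which share the 4 PBS tumors. Filled points passed both thresholds, as did 9, 6, 10, 0 and 8 genes in the ICB, 5-FU, 5-FU+ICB, cisplatin and cisplatin+ICB comparisons.

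Adding a chemotherapy to ICB, or ICB to a chemotherapy, gave no gene among the 10 that edgeR called with all tumors. These comparisons share the same tumors. Against ICB alone, 5-FU+ICB tumors differed in Ciita by -1.12 ± 0.47 (SE, edgeR adjusted p = 0.385), the one gene of the 10 with an unadjusted p under 0.05, with 5-FU+ICB tumor 3 overlapping the ICB range. Cd74 differed by -0.14 ± 0.65 and H2-Aa by -0.33 ± 0.71. Among all genes 0.162% were called lower, and DESeq2 called 0 of the 10. Against 5-FU alone, 5-FU+ICB tumors were higher by 0.79 to 2.19 with 2 unadjusted p under 0.05, those of H2-Oa and H2-Ob. Over all genes 12.7% were higher at that unadjusted p. No gene of the 10 was called by edgeR or DESeq2, and 0.0112% of all genes were called higher by edgeR. Without 5-FU+ICB tumor 2, edgeR called H2-Oa (2.51, adjusted p = 0.0387) and 8.09% of all genes higher. Without 5-FU+ICB tumor 5, the tumor with the most of both H2-O chains, H2-Oa fell from 2.19 to 0.68 (edgeR adjusted p = 0.827) and H2-Ob from 1.94 to 0.01 (adjusted p = 0.997). Without 5-FU tumor 3 the differences were larger, 2.08 in place of 1.12 for H2-Aa and 1.86 in place of 0.99 for Cd74, and 0 of the 10 were called by edgeR, against 3.38% of all genes called higher.

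Against ICB alone, cisplatin+ICB tumors had 10 of 10 genes below 0, from -1.44 ± 0.47 for Ciita to -0.85 ± 0.46 for H2-Oa. Of these 9 had an unadjusted p under 0.05 and 0 were called by edgeR (smallest adjusted p = 0.291) or DESeq2, and 0% of all genes were called lower. Over all genes 52.9% were above 0, and the share below 0 at that unadjusted p was not counted. Against cisplatin alone, cisplatin+ICB tumors were higher by 0.15 to 1.91. Of the 10 genes 9 had an unadjusted p under 0.05, against 9.61% of all genes higher at that p. EdgeR called 0 (smallest adjusted p = 0.135, and 0% of all genes called higher). DESeq2 called 6 of the 10 there, the 3 classical chains, H2-DMa, H2-DMb1 and Cd74, against 3.83% of all genes called higher. Without cisplatin+ICB tumor 1, edgeR called 7, against 8.31% of all genes.

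The chemotherapies and their combinations were set against each other in a model of all 28 tumors and 18521 genes. 5-FU tumors were higher than cisplatin tumors by 0.63 to 2.20, with 0 of 10 called by edgeR, against 0.0918% of all genes called higher. Of the 10, 5 had an unadjusted p under 0.05, against 8.91% of all genes higher at that p. The largest difference was that of Cd74 (2.20 ± 0.77, adjusted p = 0.171), which DESeq2 called along with 2.7% of all genes. Without 5-FU tumor 3 it was 1.35 by edgeR. 5-FU+ICB tumors were higher than cisplatin+ICB tumors by 0.32 to 2.40, with 0 of 10 called by edgeR, against 0.103% of all genes. Of the 10, 2 had an unadjusted p under 0.05, against 12.2% of all genes higher at that p. H2-Ob differed by 2.40 ± 0.74 (adjusted p = 0.0792) and was the one of the 10 called by DESeq2, against 3.38% of all genes. Without 5-FU+ICB tumor 2, edgeR called H2-Oa and H2-Ob, against 6.29% of all genes. Both rested on 5-FU+ICB tumor 5: without it H2-Ob differed by 0.48 (edgeR adjusted p = 0.620) and H2-Oa by 0.50 (adjusted p = 0.681) in place of 2.00.

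The interaction asks whether a chemotherapy changed a gene by a different amount with ICB than without. For 5-FU all 10 interactions were below 0, with 7 unadjusted p under 0.05 and 0 called by edgeR, against 0.0781% of all genes called lower. Over all genes 51.5% were above 0, and the share below 0 at that unadjusted p was not counted. Ciita had -2.95 ± 0.70 (adjusted p = 0.0665) and Cd74 -2.93 ± 0.98 (adjusted p = 0.0908). H2-Oa had -0.30 ± 1.20 and H2-Ob -0.01, too small a change for its SE to be given. Without 5-FU+ICB tumor 5 these were -1.81 for H2-Oa (adjusted p = 0.250) and -1.94 for H2-Ob (adjusted p = 0.138). DESeq2 called 3 of the 10, Ciita, Cd74 and H2-DMa, against 4.19% of all genes called lower. EdgeR called Ciita where PBS tumor 3 or 4, 5-FU tumor 4 or 5-FU+ICB tumor 4 was left out, fits in which 2.73%, 1.36%, 0.422% and 1.89% of all genes were called lower. For cisplatin all 10 were below 0, the largest being that of Ciita (-2.57 ± 0.71), while 50.1% of all genes were above 0. Of the 10, 9 had an unadjusted p under 0.05, whose share over all genes below 0 was not counted. None of the 10 was called by edgeR (adjusted p = 0.564) or DESeq2, and 0% of all genes were called lower.

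Ciita moved with the other 9 genes from tumor to tumor inside the treatment groups in CPM, and with 2 of them relative to Ptprc. After the mean of each group was taken off the log2 CPM, Pearson's r over the 28 tumors was 0.945 with Cd74, 0.917 with H2-DMa, 0.864 with H2-Ab1, 0.699 with H2-Oa and 0.546 with H2-Ob. Spearman's rho was 0.945, 0.909, 0.884, 0.735 and 0.650 for the same genes. In a two-sided permutation test within groups, the adjusted p over the 9 relations was at most 0.00988 for r and 0.00168 for rho, where 1e-05 was the smallest p the resamples could give. Without 5-FU+ICB tumor 2 and cisplatin+ICB tumor 1, the tumors farthest from the median of Ciita, r was 0.931 with Cd74, 0.891 with H2-Ab1 and 0.541 with H2-Ob. With both genes taken relative to Ptprc, r was 0.708 with H2-DMa (adjusted p = 0.00261) and 0.703 with Cd74 (adjusted p = 0.00459), and the other 7 relations no longer passed, those with H2-Oa (r = -0.142) and H2-Ob (r = -0.372) being below 0. Both values of a pair then share Ptprc as divisor, which can raise r by itself. The permutation breaks that shared part, so these p-values do not test a relation free of Ptprc. No batch is given by the labels, so none could be taken into account.

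The amount of Cd74 per Ciita differed between the treatments, a pattern chosen after its values were seen and not tested. The ratio of their CPM was 45 to 57.2 in PBS, 36.1 to 70.3 in ICB, 32.4 to 45.5 in cisplatin and 34.6 to 65.4 in cisplatin+ICB. It was 76.3 to 125 in 5-FU, above every tumor of those 4 groups. In 5-FU+ICB it was 71.4 to 146 in 4 tumors and 30.3 in tumor 2. Ciita per Ptprc was 0.375 to 0.462 in ICB tumors, above all other tumors, and 0.107 to 0.311 in 5-FU+ICB tumors. The ratio of Cd74 to H2-Aa was 2.40 to 3.08 in 5-FU tumors, against 1.91 to 2.16 in ICB and 1.47 to 2.12 in cisplatin tumors, with PBS tumor 3 at 2.44. It was 1.94 to 3.24 in 5-FU+ICB tumors, which overlapped the ICB range, and 0.613 to 2.23 in cisplatin+ICB tumors.

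**Figure D4:**
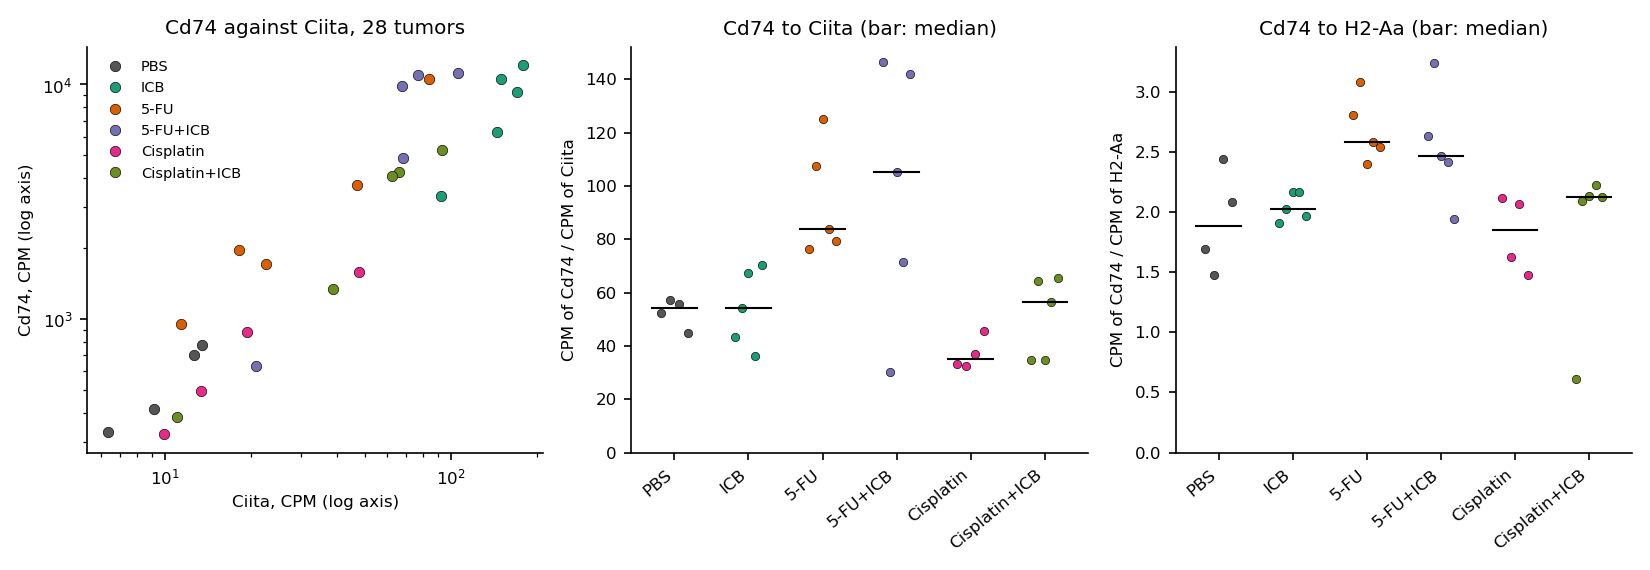
Cd74 against Ciita in CPM (log axes) in 28 tumors, and the ratios of Cd74 to Ciita and of Cd74 to H2-Aa by group, with a bar at the median. The 5 tumors of the 5-FU group lie at 76.3 to 125 Cd74 per Ciita, above the PBS, ICB, cisplatin and cisplatin+ICB tumors.

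Genes around class II in the pathway were described from lists. Of 7 genes of the interferon gamma axis, 5 were called higher in ICB, 2 in 5-FU, 6 in 5-FU+ICB, 0 in cisplatin and 3 in cisplatin+ICB, each against PBS by edgeR, and 0 lower. Over all genes the shares called higher were 19%, 9.98%, 21.9%, 0% and 4.7% in the same order. In ICB tumors Ifng rose by 5.26 ± 0.57, Socs1, a feedback inhibitor of the pathway, by 1.98 ± 0.33, the factor Irf1 by 1.94 ± 0.24 and the kinase Jak2 by 1.42 ± 0.21. Of 9 genes of endosomal processing, 7, 0, 4, 0 and 1 were called higher in the same comparisons, of which the 0 in 5-FU lies below the share over all genes. Ctss, the protease that trims the invariant chain, rose most in ICB (2.80 ± 0.59), followed by Ctsh (1.92 ± 0.57), Ctsz (1.71 ± 0.33) and Ctsb (1.62 ± 0.40). Of the 7 subunits of the factors at the X-Y module, Rfx5 alone was called in ICB (1.01 ± 0.15, adjusted p = 0.000258) and in 5-FU+ICB (0.79, adjusted p = 0.00111), and none in the other 3 comparisons, so that 1 of 7 is no more than the share over all genes. Of the other genes of the class II region H2-Ea-ps rose by 3.47 ± 0.85 in ICB, 3.08 in 5-FU+ICB and 2.27 in cisplatin+ICB. Btnl2 was called in ICB and 5-FU+ICB, from 1 or 2 counts in each PBS tumor to 5 to 14 in the ICB tumors and 4 to 39 in the 5-FU+ICB tumors. Cd83, which protects class II from turnover, had 1.73 ± 0.75 in ICB, where it was not called (adjusted p = 0.0733), and rose by 2.40 in 5-FU+ICB (adjusted p = 0.0191).

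The 10 genes varied together over the 28 tumors. The correlation of one gene's log2 CPM with the mean of the other 9 was 0.996 for H2-Aa, 0.994 for H2-Eb1 and 0.993 for H2-Ab1, and lowest for Ciita (0.918), H2-Oa (0.915) and H2-Ob (0.828). Among 13319 other genes the 10 most alike the mean of the class II genes were H2-Ea-ps (r = 0.986), Arrdc4, P2ry14, Plbd1, Arhgap25, Tlr1, Ctss, Nrros, Irf8 and Ptprc (r = 0.971). These correlations are over tumors of 6 treatment groups. After the mean of each group was taken off, r was 0.992 for H2-Aa, 0.847 for Ciita, 0.906 for H2-Oa and 0.7835 for H2-Ob. It was 0.976 for H2-Ea-ps and 0.945 for Ptprc with the mean of the class II genes. Ptprc ran from 75.0 to 723 CPM over the tumors, and its part was not tested.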

How the data were processed

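Total RNA of whole tumors was sequenced as 100-base single-end reads. The authors ran kallisto (0.46.0 per the submitters' processing notes, which name GRCm38 and mm10) and tximport, and deposited unnormalized estimated counts per gene in one matrix for 5-FU and one for cisplatin. Both hold the 9 tumors of the PBS and ICB groups, with identical values. Rounding to whole numbers, needed for 23.7% of the entries, came first. Pseudoalignment assigns reads of near-identical genes by estimation, and 26 gene names had been turned into dates, so the MARCH genes could not be matched.

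R 4.3.3 was used with edgeR 4.0.16 (filterByExpr, TMM, glmQLFit with all groups of a matrix), DESeq2 1.42.0 and limma 3.58.1. The procedure was tested on simulated data. CPM were taken from the 28 tumors joined, and log2 CPM used a prior count of 2. Relations of Ciita used 100000 resamples within groups and adjustment over 9 relations. Lengths, 31-base words and coordinates came from GENCODE M21, promoters from RefSeq. The 10 genes, the lists and the marker genes were chosen with earlier results of these data known. Of each pathway list up to 4 genes are named, the called ones with the largest change in ICB tumors, of cell markers the most abundant, and the 10 genes most alike by Pearson's r among those with a mean count of at least 50. Genes named for other reasons are marked as chosen after their values were seen. Alternatives were another tool, scaling, filter, block, threshold, model, reference gene and each tumor left out. Some genes of the lists are not reported here, and the counts and sums of those lists leave them out.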

Additional observations from a re-analysis of the deposited data

Results flagged for a closer look

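In the 60 sets of a gene and a group, 2 tumors lay far from the rest of their group by Dixon's criterion, where chance gives about 1 in 20. H2-DMa in ICB tumor 4 was at 7.41 log2 CPM (169 CPM), with the other 4 tumors at 8.24 to 8.57. Ciita in 5-FU+ICB tumor 2 was at 4.39 log2 CPM (20.9 CPM), with the other 4 tumors at 6.08 to 6.74. In both tumors Ptprc was also the lowest of the group, at 245 and 105 CPM. Its part was not tested.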

How the results depend on the processing

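The size factors of DESeq2, no filter, a mean count of at least 10, no fold change threshold, a prior count of 0.5 and library size alone moved none of the counts of called genes by over 1.5 times and no level by more than 1 SD. The cause of the changes below was not tested. With DESeq2's test, the counts became 6 for cisplatin+ICB against cisplatin, 1 for 5-FU against cisplatin, 1 for 5-FU+ICB against cisplatin+ICB and 3 for the interaction of 5-FU and ICB. With all 6 groups in one model, 1 gene was called in 5-FU and 1 in cisplatin+ICB against PBS, where 2.84% and 3.42% of all genes were called higher. With the 2 groups alone 0 were called in cisplatin+ICB, as were 0% of all genes. Relative to Ptprc the counts against PBS were 1 for 5-FU, 1 for 5-FU+ICB and 3 for cisplatin+ICB. Leaving out one tumor gave 8 to 9 calls for ICB, 0 to 7 for 5-FU, 9 to 10 for 5-FU+ICB and 0 to 9 for cisplatin+ICB against PBS. It gave 0 to 1 for 5-FU+ICB against 5-FU, 0 to 7 for cisplatin+ICB against cisplatin, 0 to 2 for 5-FU+ICB against cisplatin+ICB, 0 to 1 for the interaction of 5-FU and ICB, and 0 for the others. The share of all genes called higher moved with these fits. In the fits named further above it ran from 3.43% to 10.5% for 5-FU and from 0% to 18.2% for cisplatin+ICB against PBS. For ICB and 5-FU+ICB against PBS that share is not given, so their counts stand without it.

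The replicate numbers did not pair the tumors: deviations of same-numbered tumors had a median correlation of -0.0186, and 5 of 28 tumors correlated best with their own number. With the replicate block, 2 genes were called in 5-FU and 0 in cisplatin+ICB against PBS, where 7.19% and 0.499% of all genes were called higher, and the other counts stayed within 1.5 times.

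With both genes relative to Ptprc, the relation of Ciita was weaker with H2-Aa (r = 0.409), H2-Ab1 (0.450), H2-Eb1 (0.384), H2-DMb1 (0.396) and H2-DMb2 (0.284), and turned with H2-Oa (-0.142) and H2-Ob (-0.372). The lowest count of any of the 10 genes in a tumor was 13, and group sizes of 4 to 5 limit every comparison.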
